A study of Mus musculus with 2 samples.

Results

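Members of 6 families of RNA-binding proteins that set tissue-specific splicing were followed in mouse intestine at embryonic day 15.5 (E15.5). The 10 genes were taken by symbol from the deposited gene and transcript tables: *Esrp1* and *Esrp2*, *Rbfox1* and *Rbfox2*, *Mbnl1* and *Mbnl2*, *Ptbp1* and *Ptbp2*, *Celf1*, and *Rbpms*. All 10 were found among 43346 Ensembl genes, and all 10 had transcripts in the transcript tables. The study measured total RNA in 2 libraries of 1 group, whole intestine of healthy B6NCrl embryos of both sexes, with no mutation or treatment named in the labels. Replicate 1 pooled 78 embryos and replicate 2 pooled 62 embryos, so each value is an average over many animals. With 1 group there was no contrast between conditions, and the question open to these data is how much of each regulator, and which of its forms, this tissue holds.

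The libraries gave 34406872 and 40669822 estimated counts, of which 33665128 and 39953610 fell on mouse genes. Levels are given in TPM, which counts transcripts relative to all transcripts of a library and is scaled by length, so it allows genes to be set side by side within a library. Detection here means 1 TPM or more in each of the 2 libraries, which the labels call biological replicates. In this bulk tissue, fewer cells of a type and less RNA per cell cannot be told apart. All 10 epithelial markers and all 10 smooth muscle markers examined were detected, with summed TPM of 3071 and 2961 for epithelium and 3899 and 3913 for smooth muscle in replicates 1 and 2. The 10 enteric neuron markers, all detected, summed to 340 and 372. Of 10 skeletal and heart muscle markers 5 were below 1 TPM in both libraries, among them *Myod1* at 0.02 and 0.20. All 8 pancreatic acinar markers were detected too, and each was over 1.5-fold higher in replicate 1, with summed TPM of 5748 against 2013. All 8 liver markers were also detected and higher in replicate 1, 1 of them over 1.5-fold, with summed TPM of 722 against 517. Whether tissue of these organs was in the pools was not tested.

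Pre-mRNA can be spliced in more than one way, and RNA-binding proteins that sit beside an exon decide whether it is kept. ESRP proteins are made in epithelia and hold epithelial exon choices. PTB proteins repress exons through pyrimidine-rich sites; *Ptbp1* is broad, and *Ptbp2* takes over in developing neurons. MBNL and CELF proteins often act in opposite directions on the same exons during the maturation of muscle, RBFOX proteins bind the word GCAUG in neurons and muscle, and RBPMS is a regulator of the contractile splicing program in smooth muscle.

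All 10 regulators were detected, where the same limit was passed by 34.6% of Ensembl genes and 62.7% of protein-coding genes. Their mean levels ran from 2.02 TPM for *Rbfox1* to 259 TPM for *Ptbp1*, with a median of 38.4, beside a median of 15.5 over all 14986 detected genes and 229 over 28 general splicing factors. The general factors of highest mean TPM were *Hnrnpk* with 1070 and 1256 TPM, *Hnrnpa2b1* with 744 and 822, *Hnrnpf* with 657 and 697, and the SR protein gene *Srsf3* with 591 and 661. From high to low the order of mean TPM was *Ptbp1*, *Rbpms*, *Mbnl1*, *Celf1*, *Mbnl2*, *Esrp2*, *Ptbp2*, *Esrp1*, *Rbfox2* and *Rbfox1*. Of the 9 pairs of neighbours in this order, 3 had library ranges that overlapped: *Rbpms* with *Mbnl1*, *Esrp2* with *Ptbp2*, and *Ptbp2* with *Esrp1*. Within a library *Rbpms* was above *Mbnl1* both times, by 1.065 and 1.03 times, while the order of the other two pairs changed between libraries.

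**Figure D1:**
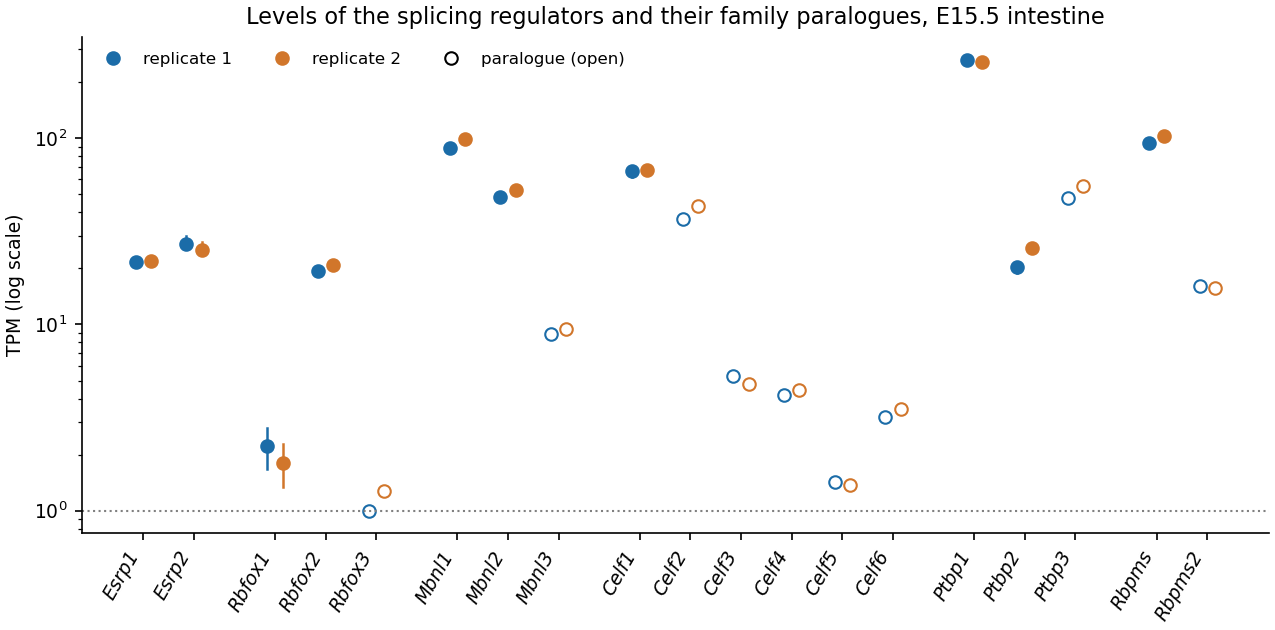
TPM on a log axis for the 10 regulators (filled points) and their 9 family paralogues (open points) in each of the 2 libraries. Vertical lines are the deposited credibility bounds of the regulators, hidden where shorter than the point, and the dotted line is 1 TPM; *Ptbp1* stands highest at 261 and 257 TPM and *Rbfox1* lowest among the regulators.

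The epithelial pair lay between 21.7 and 27.1 TPM in both libraries. *Esrp1* had 21.7 and 21.8 TPM in replicates 1 and 2 (mean 21.8 ± 0.0212, SD, n = 2), from 1816 and 2170 counts. *Esrp2* had 27.1 and 25.2 TPM (26.2 ± 1.36, SD, n = 2), from 1782 and 1904 counts. *Esrp2* was the higher of the pair in both libraries, by 1.248 and 1.158 times. *Esrp1* lies at chr4:11331933-11386783 on the minus strand of GRCm38 (mm10), and *Esrp2* at chr8:106130319-106136974, also on the minus strand.

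*Esrp1* was listed with 7 transcripts. Its leading form, Esrp1-204, took 59.98% and 54.8% of the gene's TPM and lacks both alternative exons of 110 and 151 nt that lie towards the 3′ end. Esrp1-203 holds both and took 26.4% and 28.0%. The coding sequences are 1812 nt in Esrp1-204 and 2043 nt in Esrp1-203. The 151-nt exon was included in 30.9% and 41.1% of the TPM of transcripts that span it, and the 110-nt exon in 35.3% and 31.7%. Both exons were therefore skipped in the larger part of *Esrp1* RNA in each library.

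*Esrp2* was listed with 9 transcripts and led by Esrp2-201, with 74.5% and 73.5% of its TPM and a coding sequence of 2151 nt. Transcripts annotated as retained introns took 22.5% and 22.3% of the TPM but 4.62% of the counts. A share of TPM gives a short transcript more weight than its count of reads does, which bears on this value: the listed retained-intron forms Esrp2-205, Esrp2-202 and Esrp2-209 are 721, 608 and 419 nt long. By k-mers (31-base words), 6.38% of the *Esrp2* words also occur in other genes, among them *Nfatc3* on the same chromosome, and reads there could be split between the genes.

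*Ptbp1*, the broad repressor at chr10:79854427-79864771 (plus strand), had the highest level of the 10. It measured 261 and 257 TPM (259 ± 2.81, SD, n = 2) from 16563 and 19095 counts, above 95.9% of detected protein-coding genes. *Ptbp2*, its neural relative at chr3:119718742-119784466 (minus strand), had 20.3 and 25.7 TPM (23.0 ± 3.85, SD, n = 2) from 1585 and 2342 counts. *Ptbp3*, the family paralogue known from blood cells, had 47.8 and 55.1 TPM. *Ptbp1* thus stood 12.9 and 10.0 times above *Ptbp2* and 5.47 and 4.67 times above *Ptbp3*, and the 3 genes kept this order in both libraries. The *Ptbp1* level carries an uncertainty that the libraries cannot show, since 27.5% of its 31-base words occur in other genes. The closest of these is *Gm4900*, with 11.1% of the words, whose identifier is absent from the deposited genes, so it has no level of its own here. Overlapping or adjacent *Gm17134*, annotated as antisense, had 5.64 and 1.93 TPM, and *Plppr3*, which shares fewer words, had 26.0 and 27.4 TPM. The strand setting of the authors' counting was not stated in any source used here.

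Among 16 listed *Ptbp1* transcripts, 3 coding forms carried most of the RNA. Ptbp1-206 took 39.0% and 31.1%, Ptbp1-216 took 26.1% and 33.7%, and Ptbp1-202 took 21.9% and 24.2%. The first and the second of these changed places between the libraries. Their deposited credibility bounds do not overlap between libraries: for Ptbp1-206 they were 88.0 to 110 TPM in replicate 1 and 61.9 to 83.6 TPM in replicate 2, and for Ptbp1-216 58.7 to 72.2 and 79.9 to 93.5 TPM. Ptbp1-216 holds a 78-nt exon that Ptbp1-206 and Ptbp1-202 lack, and the coding sequences of Ptbp1-216 and Ptbp1-206, 1665 and 1587 nt, differ by its length. The exon encodes part of the linker between RNA recognition motifs. This exon was included in 33.7% and 40.0% of the TPM of spanning transcripts, which summed to 240 and 237 TPM. It lies at chr10:79860117-79860194 on the plus strand, and is shown because the main *Ptbp1* forms differ by it:
Ptbp1 78-nt exon: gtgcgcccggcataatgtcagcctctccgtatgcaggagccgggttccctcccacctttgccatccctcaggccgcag
TCTT, the DNA spelling of a short PTB-binding word, was not found in it and is present in 27.6% of 1249 coding exons of that length. A match of letters is a description and not a binding site.

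PTB proteins are known to promote skipping of another *Ptbp1* exon, 34 nt long, in their own RNA, which shifts the reading frame and marks the RNA for nonsense-mediated decay. Transcripts that hold it summed to 229 and 230 TPM. Those that skip it, both annotated as nonsense-mediated decay, summed to 10.9 and 7.23 TPM, or 4.56% and 3.05% of the spanning TPM, all of it on Ptbp1-207, a model of 848 nt. By counts, transcripts annotated as nonsense-mediated decay took a mean of 0.988% of the gene. RNA that has been decayed is missing from both shares, so they do not give how often the exon is skipped. *Ptbp2* and *Ptbp3* also hold coding exons of 34 nt, and for each gene the one closest in sequence to that of *Ptbp1* is shown. Whether the *Ptbp2* and *Ptbp3* exons are regulated in the same way was not tested. Capitals in the lower pair mark bases that differ from *Ptbp1*:
Ptbp1 34-nt exon, chr10:79862014-79862047, plus strand: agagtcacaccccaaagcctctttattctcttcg
Ptbp2 34-nt exon, chr3:119724612-119724645, minus strand: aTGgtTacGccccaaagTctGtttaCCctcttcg
Ptbp3 34-nt exon, chr4:59485339-59485372, minus strand: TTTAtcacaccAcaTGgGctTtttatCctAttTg
The *Ptbp2* exon matches that of *Ptbp1* at 26 of 34 bases (76.5%) and the *Ptbp3* exon at 22 of 34 (64.7%). The *Ptbp1* exon holds 2 copies of TCTT, and 1.99% of 151 coding exons of its length hold as many or more. *Ptbp2* was listed with 1 transcript alone, Ptbp2-201, which holds the exon, so skipping in *Ptbp2* could not be measured from these tables. For *Ptbp3*, 9 listed transcripts hold the exon shown, with 43.3 and 50.2 TPM, and none of the 13 used skips it. Another coding exon of *Ptbp3* is also 34 nt long, at chr4:59546149-59546182. That exon was included in 14.5% and 20.1% of spanning TPM, so it was skipped in the larger part.

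The muscle-associated MBNL and CELF genes stood in the upper part of the order. *Mbnl1* lies at chr3:60472830-60629750, *Mbnl2* at chr14:120275669-120431697 and *Celf1* at chr2:90940382-91019497, all on the plus strand. *Mbnl1* had 88.8 and 99.1 TPM (94.0 ± 7.29, SD, n = 2) and *Mbnl2* 48.3 and 52.8 TPM (50.6 ± 3.24, SD, n = 2). *Mbnl1* was 1.84 and 1.88 times *Mbnl2*, and *Mbnl2* was 5.404 and 5.592 times *Mbnl3*, which had 8.93 and 9.45 TPM. *Celf1* had 66.7 and 67.6 TPM (67.1 ± 0.622, SD, n = 2). Its relative *Celf2* had 36.7 and 43.1 TPM, while *Celf3*, *Celf4*, *Celf5* and *Celf6*, best known from brain, lay between 1.38 and 5.30 TPM. The skeletal and heart muscle markers summed to 16.8 and 33.5 TPM, far below the smooth muscle sum in the same libraries. Of these 10 markers 8 were higher in replicate 2, with *Acta1* at 5.19 and 18.3 TPM making up most of the difference, and *Tnni3* and *Nkx2-5* were lower. *Mbnl1*, *Mbnl2* and *Celf1* were higher in replicate 2 too, and the part of muscle RNA in those levels was not tested.

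*Mbnl1* had the largest part of its output on minor transcripts. It was listed with 25 transcripts, of which 3 reached a mean share of 10%: the coding Mbnl1-214 with 24.0% and 26.8%, the non-coding Mbnl1-212 with 12.5% and 12.8%, and Mbnl1-225, annotated as a retained intron, with 13.8% and 10.4%. The other transcripts together held a mean of 49.9%. Mbnl1-212 is 1019 nt long and took 3.45% of the gene's counts. Of the 16 exons in the 10 genes included at 5% to 95% in both libraries, 9 belong to *Mbnl1*. The 54-nt exon, which is known to help carry the protein into the nucleus, was included in 50.7% and 54.9% of spanning TPM. The 36-nt exon was included in 36.7% and 32.7%, the 111-nt exon in 11.3% and 11.8%, and the 95-nt exon in 84.7% and 79.0%. The 111-nt exon is held by Mbnl1-210 alone, which is 576 nt long. That transcript took 94.0 and 133 of the gene's 7039 and 9473 counts. A 154-nt exon was included in 79.0% and 81.1%, and a 49-nt version of it that shares its 3′ end in 44.4% and 28.7% of the TPM left when the longer version is not counted. The TPM that skips either version is all on the non-coding Mbnl1-212, and no protein-coding transcript skips them. With protein-coding transcripts alone, mean inclusion was 66.9% for the 54-nt exon and 42.2% for the 36-nt exon. It was 77.5% for the 95-nt exon and 14.2% for the 111-nt exon. The exons of 54, 36 and 111 nt are whole numbers of codons, so their use changes the protein without shifting the frame.

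The 54-nt exon has a close counterpart in *Mbnl2*, and both are shown with the bases that differ in capitals. The 36-nt exon of *Mbnl1* is shown with TGCATG, the DNA spelling of the RBFOX word with a T before it, in capitals:
Mbnl1 54-nt exon, chr3:60614683-60614736, plus strand: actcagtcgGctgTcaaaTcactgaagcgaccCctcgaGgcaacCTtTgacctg
Mbnl2 54-nt exon, chr14:120395712-120395765, plus strand: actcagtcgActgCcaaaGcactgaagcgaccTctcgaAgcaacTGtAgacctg
Mbnl1 36-nt exon, chr3:60621423-60621458, plus strand: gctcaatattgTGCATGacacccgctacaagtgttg
The 54-nt exons match at 46 of 54 bases (85.2%). TGCATG occurs once inside the 36-nt exon, and in 1.28% of 468 coding exons of that length. The shorter GCATG was not counted. The core of the MBNL word, GC with a C or T on each side, was not found in the *Mbnl1* 54-nt exon, while 43.2% of 1209 exons of that length hold at least 1, the *Mbnl2* exon among them. All words were counted on the transcribed strand alone, since these proteins bind RNA. These windows hold the exons alone, and the introns beside them, where such regulators also bind, were not searched. *Mbnl2* was listed with 2 transcripts, Mbnl2-201 with 47.6% and 54.9% and Mbnl2-202 with 52.4% and 45.2%, so the leader differed between libraries. The length of Mbnl2-202 is 4498 nt in the deposited table and 4534 nt in the later annotation, a difference of 36 nt, and no exon inclusion was computed from it.

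*Celf1* was spread over 14 listed transcripts, 4 of which took at least 10%. Celf1-203 held 20.4% and 22.0%, Celf1-201 16.72% and 21.02%, Celf1-204 17.8% and 16.8%, and Celf1-205 16.4% and 17.9%. Their coding sequences are close in length, between 1449 and 1539 nt. By counts Celf1-203, the longest at 7614 nt, took 32.5%. The 152-nt exon was included in 35.1% and 42.2% of spanning TPM and the 53-nt exon in 18.5% and 7.23%. Neither is coding over its whole length in the annotation, and whether a part of either is coding was not examined. Celf1-201, which holds the 152-nt exon, has a coding sequence of 1539 nt, and Celf1-203, which skips it, 1458 nt. With protein-coding transcripts alone the 53-nt exon was at 1.72%.

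*Rbpms*, associated with smooth muscle and located at chr8:33782643-33929863 (minus strand), was second in level. It measured 94.6 and 102 TPM (98.3 ± 5.29, SD, n = 2) from 3476 and 4354 counts, above 87.8% of detected protein-coding genes. Its paralogue *Rbpms2* had 16.0 and 15.7 TPM, and *Rbpms* stood 5.909 and 6.499 times higher. Of 13 listed transcripts, Rbpms-202 took 40.0% and 43.7% and Rbpms-203 took 36.5% and 35.3%, with coding sequences of 660 and 591 nt. Rbpms-208, annotated as nonsense-mediated decay, took 8.44% and 12.3%. By counts the order of the first and the second was the other way round, with mean shares of 25.7% for Rbpms-202 and 55.5% for Rbpms-203, since Rbpms-203 is 2466 nt long and Rbpms-202 1039 nt. A 104-nt coding exon that shifts the frame was included in 32.6% and 33.0% of spanning TPM, and in 13.3% with protein-coding transcripts alone.

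The RBFOX genes were the lowest of the 10. *Rbfox1* spans chr16:5885355-7411526 on the plus strand and *Rbfox2* chr15:77078990-77307004 on the minus strand. *Rbfox2* had 19.3 and 20.7 TPM (20.0 ± 1.02, SD, n = 2) from 3025 and 3784 counts. *Rbfox1* had 2.23 and 1.81 TPM (2.02 ± 0.297, SD, n = 2), from 81 and 80 counts, whose exact 95% Poisson intervals are 64.3 to 101 and 63.4 to 99.6. *Rbfox2* exceeded *Rbfox1* by 8.65 and 11.4 times. *Rbfox3*, a marker of mature neurons, was at the limit of detection with 1.00 and 1.27 TPM. *Rbfox2* was led by Rbfox2-203 with 69.7% and 67.8%, followed by Rbfox2-201 with 18.4% and 17.5% and Rbfox2-202 with 11.9% and 14.8%. *Rbfox1* was split between Rbfox1-202, with 85.4% and 83.1%, and Rbfox1-201. These shares rest on fewer than 100 counts per library, and by counts the mean share of Rbfox1-201 was 40.5% in place of 15.7%. Of the 4 *Rbfox2* transcripts 3, as well as Rbfox1-201, have a different length in the later annotation, and no exon inclusion was computed from them.

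**Figure D2:**
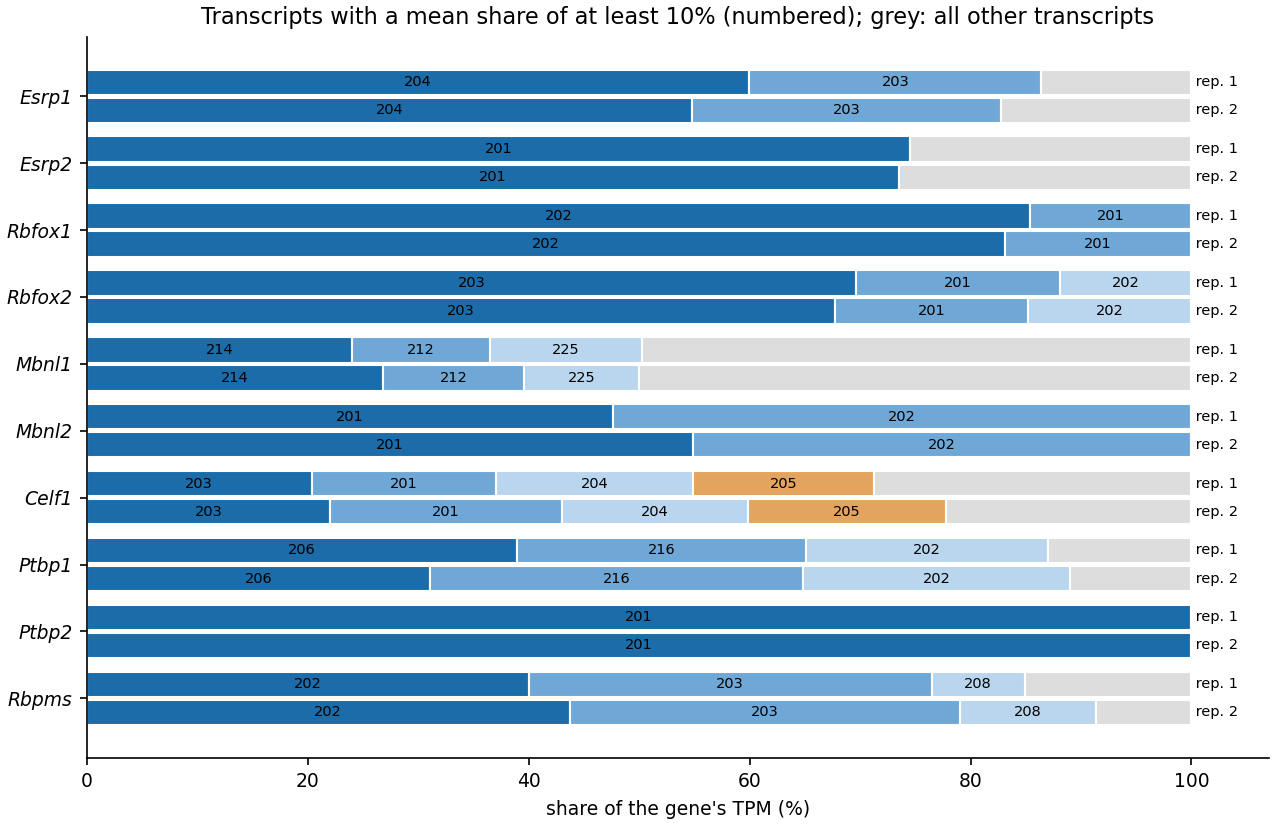
Share of each gene's TPM (horizontal axis, percent) carried by transcripts with a mean share of at least 10%, labelled by their annotation number, with all other transcripts in grey and 1 bar per library. *Ptbp2* has 1 listed transcript, and *Mbnl1* has the largest grey part, 49.9% on average.

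In 5 of the 10 genes 1 transcript held at least 50% of the TPM in both libraries: *Esrp1*, *Esrp2*, *Rbfox1*, *Rbfox2* and *Ptbp2*. Among the 9 with more than 1 listed transcript this held for 4. The same was found in 72.3% of 9781 detected protein-coding genes with at least 2 transcripts.

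**Figure D3:**
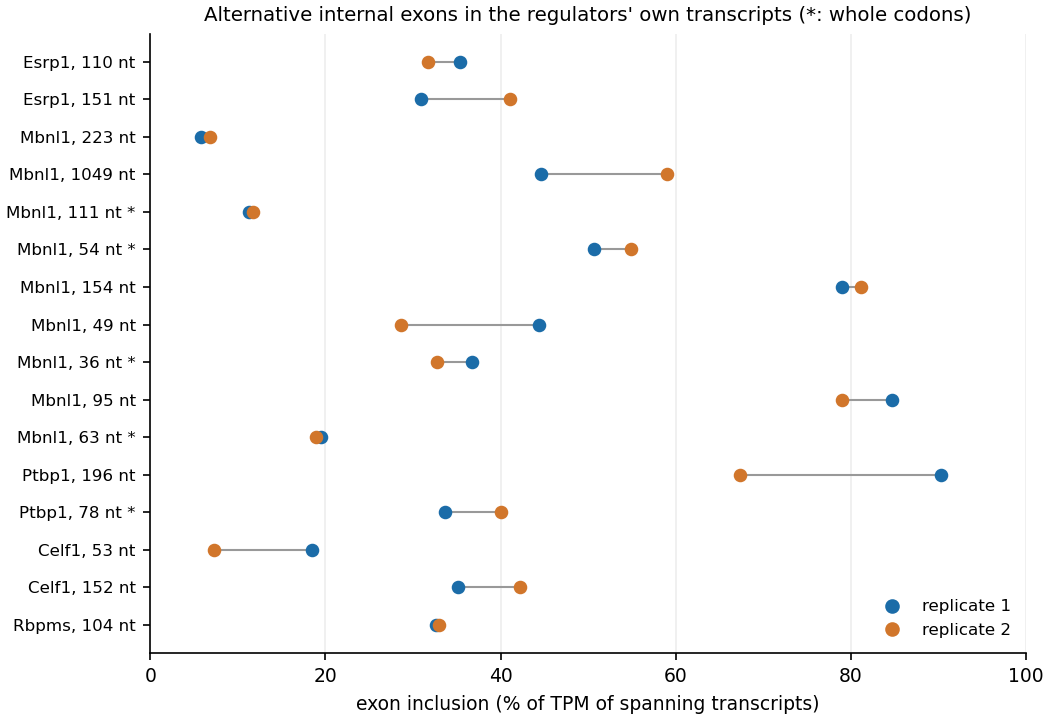
Inclusion of the 16 alternative internal exons of *Esrp1*, *Mbnl1*, *Ptbp1*, *Celf1* and *Rbpms* that were used at 5% to 95% in both libraries (horizontal axis, percent of the TPM of spanning transcripts), with 1 point per library and exon length in nt. The widest gap, *Ptbp1* 196 nt at 90.4% and 67.4%, rests on spanning transcripts of 8.19 and 11.4 TPM.

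Between the libraries the regulators differed little. None of the 10 was over 1.5-fold apart on the log2(TPM + 1) scale, where 2.23% of 14986 detected genes were (3.60% of all genes with any count). At a lower limit of 25%, 1 of 10 was past it, *Ptbp2*, beside 8.86% of detected genes. *Ptbp2* was 1.256-fold higher in replicate 2, and its count ratio after scaling by counts on mouse genes was 1.245 (95% Clopper-Pearson interval 1.17 to 1.33, counting error only). Of all detected genes 8.45% had a larger ratio in one direction or the other. Of the 10 enteric neuron markers 8 were higher in replicate 2, with a median log2 ratio of 0.14 and none over 1.5-fold, while *Tubb3* and *Ret* were lower. Other marker lists stood higher in replicate 2 by more, with a median log2 ratio of 0.22 for enteric glia and 0.17 for fibroblasts. The part of any of these in the *Ptbp2* level was not tested.

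In replicate 2, 7 of the 10 had a higher TPM than in replicate 1, as did 55.2% of detected genes. The counting interval of the count ratio excluded 1 for 7 of the 10, beside 40.4% of detected genes. Among the 4934 detected genes with a summed count of at least 3686, the depth that 9 of the 10 regulators reach, it was 61%. The interval lay above 1 for *Rbfox2*, *Mbnl1*, *Mbnl2*, *Ptbp2* and *Rbpms* and below 1 for *Esrp2* and *Ptbp1*. The ratios were scaled by counts on mouse genes, and calls with a bound close to 1 depend on that scaling. Such bounds were 0.992 (upper) for *Ptbp1*, 1.005 (lower) for *Rbfox2* and 0.99998 (lower) for *Celf1*. For *Esrp2* the ratio was 0.900 (0.844 to 0.961). For *Rbfox1* it was 0.832 (0.603 to 1.15), the widest interval of the 10. These intervals hold counting error alone, and each side is 1 library, so they describe these libraries and not a condition. The pancreatic acinar markers had a median log2 ratio of −1.43, against 0.06 for the regulators and 0.02 for all detected genes.

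**Figure D4:**
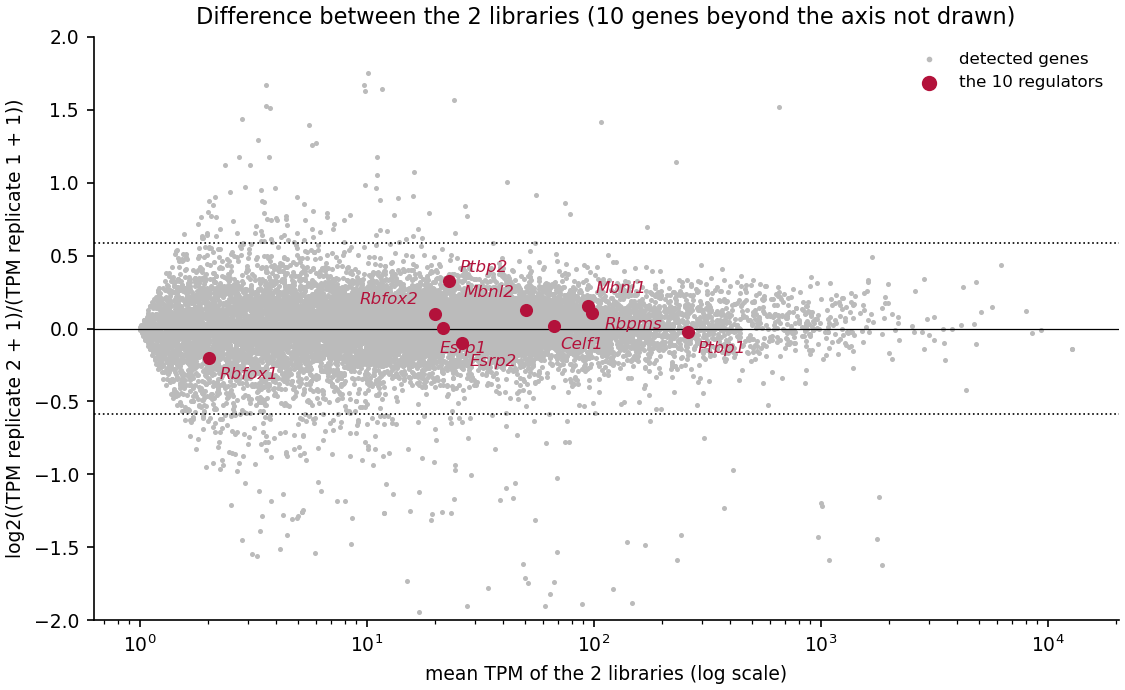
Log2 ratio of TPM + 1 between replicate 2 and replicate 1 (vertical axis) against mean TPM on a log axis, for detected genes (grey, without 10 genes beyond the axis) and the 10 regulators (red). Dotted lines mark 1.5-fold; all 10 regulators lie between them, with *Ptbp2* the highest at 0.33.

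Other splicing regulators were taken from a list of 24 genes drawn up as tissue-restricted, of which 20 were detected with a median of 6.59 TPM over the list. Whether each is restricted to some tissues cannot be told from 1 tissue. Highest were *Matr3*, a nuclear matrix protein that works with PTB, with 195 and 236 TPM, *Rbm47*, an endodermal RNA-binding protein, with 101 and 105, *Tia1* with 91.6 and 101, and *Raver1*, a PTB corepressor, with 57.6 and 55.1. *Nova1* (0.62 and 0.66 TPM) and *Nova2* (0.49 and 0.53), which act in neurons, and *Rbm20* (0.61 and 0.60), which acts in the heart, were below 1 in both libraries. The list also held *Grhl1*, an epithelial transcription factor and not an RNA-binding protein, with 0.84 and 0.68 TPM.

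Exon choices of genes known as targets show which forms the tissue held, without showing which regulator set them. Of 38 target genes examined, 25 had internal exons used at 5% to 95% in both libraries, and up to 3 per gene were kept, 54 in all. They were kept by the TPM of their spanning transcripts, so an exon given here need not be the regulated one of its gene. The best known ESRP target is *Fgfr2*, a fibroblast growth factor receptor in which epithelia use exon IIIb and mesenchyme exon IIIc. The choice exchanges part of the ligand-binding domain. Transcripts with IIIb summed to 4.59 and 5.04 TPM and those with IIIc to 16.4 and 16.4 TPM, so IIIb made up 21.8% and 23.5% of the pair. This value left out Fgfr2-211, with 11.6% and 10.4% of the gene's TPM, since its deposited length of 3053 nt is not that of the later annotation. With that transcript counted by its identifier as a IIIb form, IIIb came to 40.6% and 40.6%. IIIc was therefore the larger of the pair under both counts, and the size of the IIIb share was not settled. A further form, Fgfr2-217, of 2425 nt, skips both exons in the annotation and took 32.2% and 30.9% of the gene's TPM.

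The exons kept in the other targets listed for ESRP gave mixed forms, and they were not matched to the exons that ESRP is known to regulate. *Cd44*, a cell adhesion receptor with a run of variable exons, included those of 207, 90 and 102 nt in 58.3% to 68.2% of spanning TPM. *Ctnnd1*, which encodes the junction protein p120 catenin, included its 87-nt exon in 35.4% and 33.7%, the 63-nt exon in 59.3% and 65.1% and the 18-nt exon in 33.96% and 28.7%. *Enah*, an actin regulator, included a 12-nt exon in 5.90% and 5.51%, or a mean of 2.74% by the posterior mean TPM. In *Scrib*, a polarity protein, the 84-nt exon was at 50.4% and 47.5%, all of it on transcripts not annotated as protein-coding, and in *Nf2*, the tumour suppressor merlin, a 45-nt exon was at 13.1% and 11.3%.

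*Tpm1*, a tropomyosin gene of the contractile apparatus, had 823 and 917 TPM. Its pair of mutually exclusive 76-nt exons is shown with differing bases in capitals:
Tpm1 upstream 76-nt exon, chr9:67032466-67032541, minus strand: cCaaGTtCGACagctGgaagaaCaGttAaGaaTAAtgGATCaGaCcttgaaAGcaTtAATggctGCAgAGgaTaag
Tpm1 downstream 76-nt exon, chr9:67031951-67032026, minus strand: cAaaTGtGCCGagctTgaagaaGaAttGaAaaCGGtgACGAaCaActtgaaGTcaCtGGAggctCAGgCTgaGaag
They match at 43 of 76 bases (56.6%). The upstream exon made up 37.3% and 38.4% of the pair, on 296 and 344 TPM against 497 and 551 TPM. In *Tpm2*, the upstream member of a pair of the same length made up 97.8% and 97.7%. A 126-nt exon of *Tpm1* was included in 63.0% and 64.0% of spanning TPM. The libraries differed by less than 2 points in each of these choices. Among other cytoskeletal genes, *Mprip*, a myosin phosphatase partner, included its 66-nt exon in 71.6% and 72.9%, and *Smtn*, the smooth muscle protein smoothelin, a 165-nt exon in 64.4% and 57.5%.

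For targets of the neural and muscle regulators, *Cltb*, a clathrin light chain with a neuron-enriched 54-nt exon, included an exon of that length in 48.5% and 51.8% of spanning TPM. *Ank3*, which encodes ankyrin G, included a 27-nt exon in 28.5% and 22.5%. *Itga6*, a laminin receptor, included its 130-nt exon in 47.4% and 44.97% (84.1% with protein-coding transcripts alone). In *Epb41*, a membrane skeleton protein, a 63-nt exon was at 42.1% and 41.3% of 32.6 and 37.3 spanning TPM. The forms that skip it include Epb41-215, which is not annotated as protein-coding and had 10.5 and 11.1 TPM, so the main coding form cannot be read from these values. In *Fn1*, the matrix protein fibronectin, the 270-nt exon was at 52.1% and 55.0% (97.8% with protein-coding transcripts alone) and the 273-nt exon at 72.8% and 77.0%. Exons with a low spanning TPM had wide gaps: the 106-nt exon of *Fn1* was at 86.4% and 50.4% on 3.97 and 1.39 spanning TPM, and those of *Cacna1c* rest on 1.26 and 1.13.

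**Figure D5:**
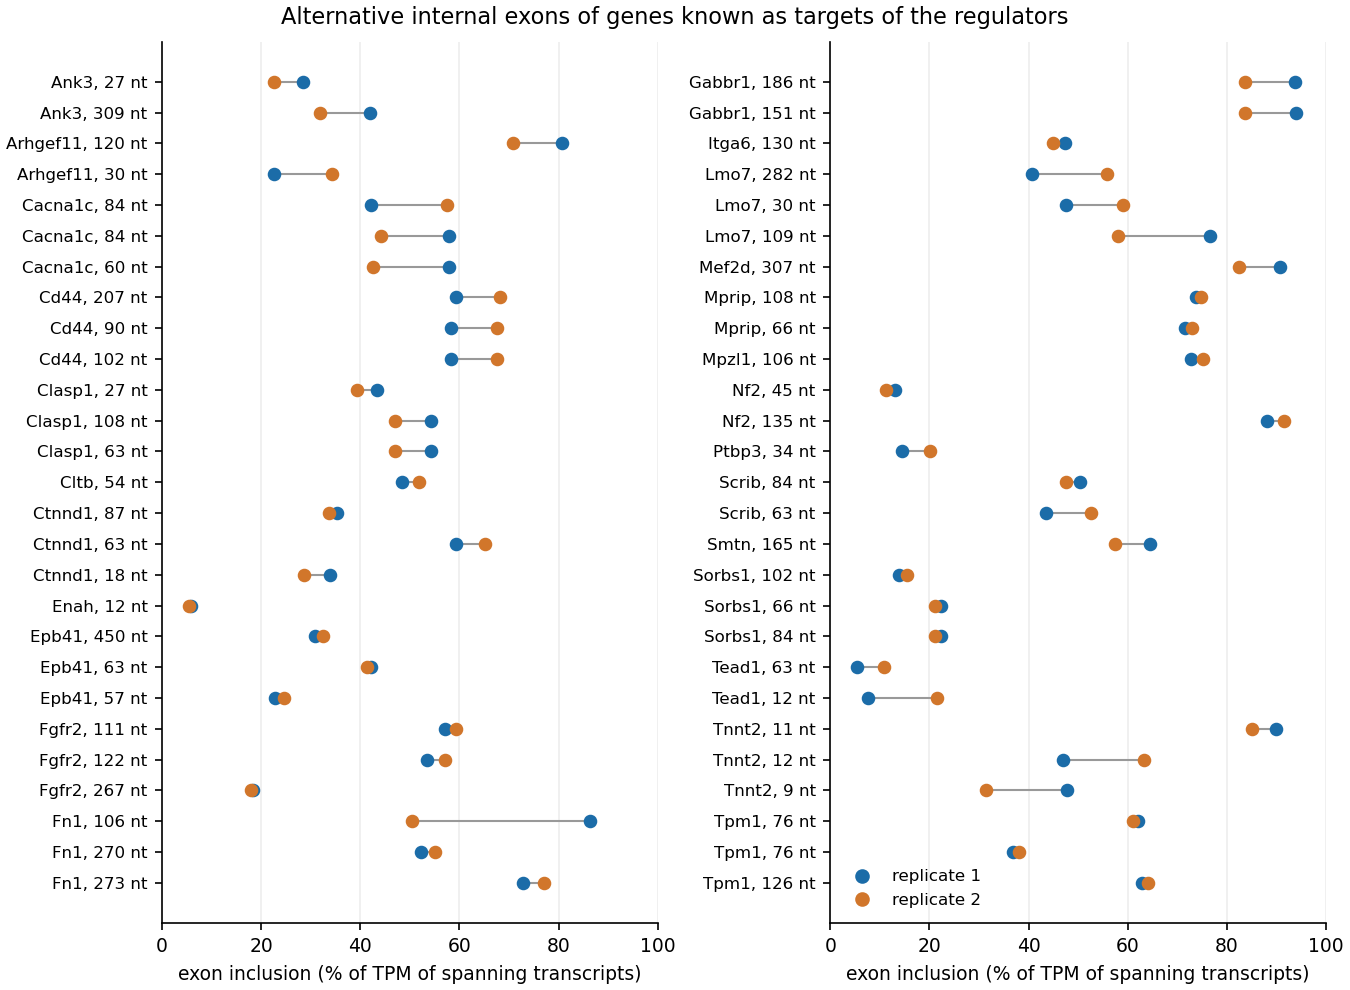
Inclusion of 54 alternative internal exons in 25 genes known as targets of the regulators (horizontal axis, percent of the TPM of spanning transcripts), with 1 point per library. *Tpm1*, *Mprip* and *Epb41* have nearly equal values in both libraries, and the 106-nt exon of *Fn1* has the widest gap, 86.4% against 50.4%.

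These inclusion values come from estimates per transcript, in which reads shared between forms are divided by a model, and reads over splice junctions were not analysed here. A transcript entered only if its deposited length equals that in the later annotation, which stands in for an unchanged exon structure.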

How the data were processed

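Total RNA of 2 libraries from E15.5 intestine was measured, from 10 ng of RNA over 200 nt extracted with the mirVana kit and with ERCC spike-ins, per the labels' protocols. Assembly mm10 and GENCODE M4 are named by the deposited readme. The aligner, quantifier, strand setting and read length are not stated in the labels or headers used here. Per the file headers, the authors deposited expected counts, which split shared reads and need not be whole. TPM and FPKM values were deposited by the authors per the file headers, and TPM sums include the spike-ins (2.16% and 1.76% of counts). FPKM was not used. The transcript tables hold the percent of a gene's output on each transcript, per the file headers. Deposited credibility bounds of TPM were used as a score, as their level is not stated.

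Symbols, exon structures and exon sequences came from GENCODE M21 (GRCm38, the same assembly), matched by identifier without version: 42462 of 43346 genes had a symbol. Of 93 transcripts of the 10 genes 5, and of 425 target transcripts 38, differ in length between releases and were left out of exon inclusion. Exon inclusion is the TPM of transcripts that hold an internal exon over that of transcripts that hold it or splice across it. Ratios between libraries used a pseudocount of 1, which understates changes of low genes. No differential test was possible with 1 group; intervals are Clopper-Pearson (95%) on estimated counts and cover counting error only. The calculation of ratios was tested on simulated data. Expected counts were rounded to whole numbers for edgeR 4.0.16 (TMM) and DESeq2 1.42.0, which gave alternative scaling factors in R 4.3.3. Python 3.11.15, pandas 2.3.3, scipy 1.17.1 and Biopython 1.88 did the rest.

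The 10 genes and 16 gene lists were chosen with earlier results of these data known. Named were all 10 genes, their paralogues, their transcripts of at least 10% mean share, their exons used at 5% to 95%, up to 3 such exons and exclusive pairs per target gene, and from other lists the 4 highest genes and up to 4 below 1 TPM. Some of these are given as counts only. No likeness of pattern to other genes was computed, since 2 libraries of 1 group give no pattern. Alternatives covered the detection limit, pseudocount, scaling, TPM estimate, transcript classes and each library alone. Some sequences are not reported here.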

Additional observations from a re-analysis of the deposited data

How the results depend on the processing

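All 10 genes were detected at limits of 0.5 and 1 TPM and in each library alone (10 to 10), and 9 at a limit of 2 TPM, *Rbfox1* being the exception. None was over 1.5-fold apart with another pseudocount, the posterior mean TPM or counts scaled by edgeR or DESeq2 factors; at a limit of 25% the count was 1. Overlapping neighbours numbered 3, and 2 with the posterior mean TPM or 4 with the deposited bounds. Genes led by 1 transcript at 50% or more numbered 5, and 6 by expected counts or in either library alone (6 to 6). Restricting to protein-coding transcripts moved 22 of 60 exon inclusion values by more than their spread, by −49.0 points for the 84-nt exon of *Scrib* and 44.2 points for the 270-nt exon of *Fn1* at the extremes. Counting all transcripts by identifier, added after the data were seen, moved 6 of 70. Shares of expected counts, also added, moved 12 of 24 transcript shares. A pair of libraries limits every spread given here. No paired analysis was possible because there is 1 group.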
